A study of Mus musculus with 3 samples.

Results

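Eif4g2 encodes a translation initiation factor related to eIF4G1 that lacks the part which binds the cap-binding protein eIF4E, and it takes part in cap-independent translation. The locus described here is the minus strand of chromosome 7 between mm9 positions 118213000 and 118230000, the 17 kb window around Eif4g2. It was chosen by a measured value, because the highest summit of the file, 250 overlapping reads against at most 68 on the mitochondrial chromosome, lies inside it, so that summit and what follows from it are given as a description and not as a finding. The window held 472 of the 1727697 deposited reads, and 343 of these lay in 1 run of overlapping reads.

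The reads came from Ptbp2 HITS-CLIP of whole testis from adult male CD1 mice, 8 weeks old, an outbred stock, with no allele or treatment named. HITS-CLIP crosslinks a protein to the RNA it touches in the tissue, recovers the pair and sequences the RNA fragment. There was 1 group of 3 libraries, 1 from each of 3 animals, and no input, control or comparison library was used here. The libraries share 1 file in which every read has 1 of 3 display colours, and the labels do not say which colour is which animal, so values are pooled or given for each colour class, taken as an unnamed library, with no SD over animals. The classes held 493620 (red), 952096 (green) and 281981 (blue) reads.

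Ptbp2 is the neural and germ-cell relative of the polypyrimidine tract-binding protein Ptbp1. Proteins of this family bind pyrimidine-rich stretches of RNA and regulate alternative splicing, and the series' title places Ptbp2 in a splicing network needed for cell communication during spermatogenesis. Small nucleolar RNAs guide chemical modification of ribosomal RNA, and in vertebrates most of them are cut out of introns of protein-coding genes. Gene names were looked up in a RefSeq table of GRCm38, with no conversion of positions between builds. That table lists 1 other gene inside the ends of Eif4g2 (gene ID 13690), LOC115486847, of the class snoRNA, with Ctr9 and the long noncoding RNA gene 1700012D14Rik as the neighbours on the 2 sides. Whether the reads below lie on LOC115486847, in an intron or in an exon was not tested, since no mm9 annotation or genome sequence was used here. For the same reason no testis cell markers were checked and no sequence is printed.

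The highest run spanned 247 nt, from 118219516 to 118219762, and 250 of its reads overlapped at position 118219622. It covered 1.45% of the window's length and held 72.7% of its reads (95% Wilson interval 68.5 to 76.5). Intervals cover counting error only, because reads copied from 1 molecule are not independent. In whole testis, the number of cells that carry a transcript and its amount per cell cannot be told apart. The other 129 reads formed 50 separate runs, so the locus consisted of 1 tall site and a thin scatter of reads around it. The second-highest run of the window had 8 reads at its summit, and the ratio of the summits was 31.2. Without the green class, the deepest, the window held 198 reads, and the highest run held 137 of them with 103 at its summit, and the ratio of the summits was 20.6.

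**Figure D1:**
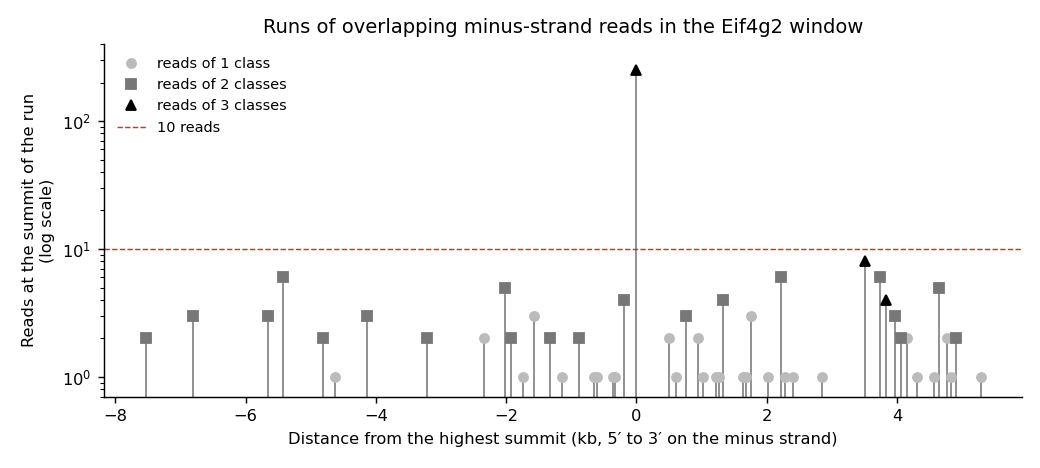
Runs of overlapping minus-strand reads in the Eif4g2 window. The horizontal axis is the distance of each run's summit from the highest summit in kb, in the 5′ to 3′ direction of the minus strand, and the vertical axis is the reads at the summit on a log scale. Marker shape gives how many colour classes the run holds. One run reaches 250 reads, and the other 50 stay at 8 reads or fewer.

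The thin scatter ran from 118214339 to 118227192, a span of 12.9 kb. Downstream of the highest run, towards the 3′ end of the minus strand, 78 reads lay in 6.51 kb, or 11.97 reads per kb. Upstream of it 51 reads lay in 10.2 kb, or 4.98 reads per kb. The lower kilobase bins carried most of these reads, with 21 between 118215001 and 118216000, 15 between 118218001 and 118219000, and 2 between 118222001 and 118223000. The scatter stopped on both sides. No minus-strand read lay in the 5 kb above the last read of the window, and 5 lay in the 10 kb below the window. The window's 129 scattered reads alone exceeded 99.0% of the 135450 strand-specific tiles of 17 kb with at least 1 read, whose median was 3 reads.

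A cluster was defined as a run that has a summit of 10 reads or more and includes every colour class, and 1 of the 51 runs of the window was a cluster. Over the whole file outside the mitochondrial chromosome 0.677% of 962080 runs were clusters, and nothing is read from this, since the summit chose the window. A summit of at least 5 reads, in any classes, was reached by 6 of the other 50 runs, against 4.27% of all runs. With all 3 classes required as well, 2 runs of the window reached 5 reads, the highest run included, against 2.17% of all runs. Of the 50 other runs, 21 were single reads, 28 held 1 class, 20 held 2 classes and 2 held all 3.

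The run closest to the threshold of 10 reads lay 3507 nt downstream of the highest summit, from 118216030 to 118216186. It had 12 reads, 4 red, 7 green and 1 blue, with 8 of them at its summit. A neighbouring run 3737 nt downstream of the highest summit, from 118215855 to 118215928, reached 6 reads, and one more at 4647 nt, from 118214949 to 118215016, reached 5. These runs formed a loose patch near the 3′ side of the scatter. On the upstream side the highest run of the scatter, from 118225027 to 118225102, reached 6 reads, of which 5 were green. A last pair, from 118217377 to 118217468 and from 118221601 to 118221681, reached 6 and 5 reads. Neither held a red read, and nor did the runs that began at 118215855 and 118225027.

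The highest run was a single hill with a low shelf on its 5′ side. Positions with at least 90% of the summit formed a stretch of 21 nt, from 118219616 to 118219636. Positions with at least 50% of it formed a stretch of 54 nt, from 118219603 to 118219656. Of the 343 reads, 250 (72.9%, 95% Wilson interval 68.0 to 77.3) covered the summit position. A further 77 lay wholly upstream of it and 16 wholly downstream, so the run had a long 5′ side and a short 3′ side. Reads that covered the summit had a median length of 51.5 nt, against 41 nt for those upstream and 38.5 nt for those downstream. Reads were at most 74 nt long, and a longer read is more likely to reach any given position.

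The ends of the reads were spread over many positions. The 343 reads used 98 positions for their 5′ ends and 101 for their 3′ ends. The middle 50% of the 5′ ends lay 17 to 53 nt upstream of the summit, and the middle 50% of the 3′ ends lay 3 to 31 nt downstream. The commonest 3′ end, 118219603, was shared by 13 reads, or 3.79% (95% Wilson interval 2.23 to 6.38), of which 11 were green, 2 red and 0 blue. The commonest 5′ end, 118219739, was shared by 12 reads, or 3.50% (95% Wilson interval 2.01 to 6.02), and the next, 118219640, by 11. With 0 lines identical in position and strand, reads that share 1 end must differ in length, which ran from 22 to 74 nt. That limits the reads 1 end can hold, so these shares cannot show how the height of the hill arose.

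The commonest 5′ end did not lie on the hill but at the outer edge of the shelf, 117 nt upstream of the summit. From 118219704 to 118219738 the coverage stayed between 18 and 29 reads, and it dropped from 17 reads at 118219739 to 5 reads at 118219740. Within 5 nt of this edge 22 reads began, 5 red, 14 green and 3 blue. They used 7 different 5′ ends and 17 different 3′ ends, the latter between 118219675 and 118219710. These reads were picked by their 5′ ends, and without identical lines reads that share a 5′ end must differ at the 3′ end. The spread of their ends on the 5′ and 3′ side therefore cannot be compared. At the edge position itself 5 reads were red, 7 green and 0 blue. Only 3 reads began more than 5 nt upstream of the edge. All 3 ended at the same 3′ position, 118219704, where 6 reads of the run ended in all. The shelf was picked out after its values were seen. The next run upstream, from 118219800 to 118219885, began 37 nt beyond the highest run, whereas 296 nt without reads separated the highest run from the next one downstream.

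**Figure D2:**
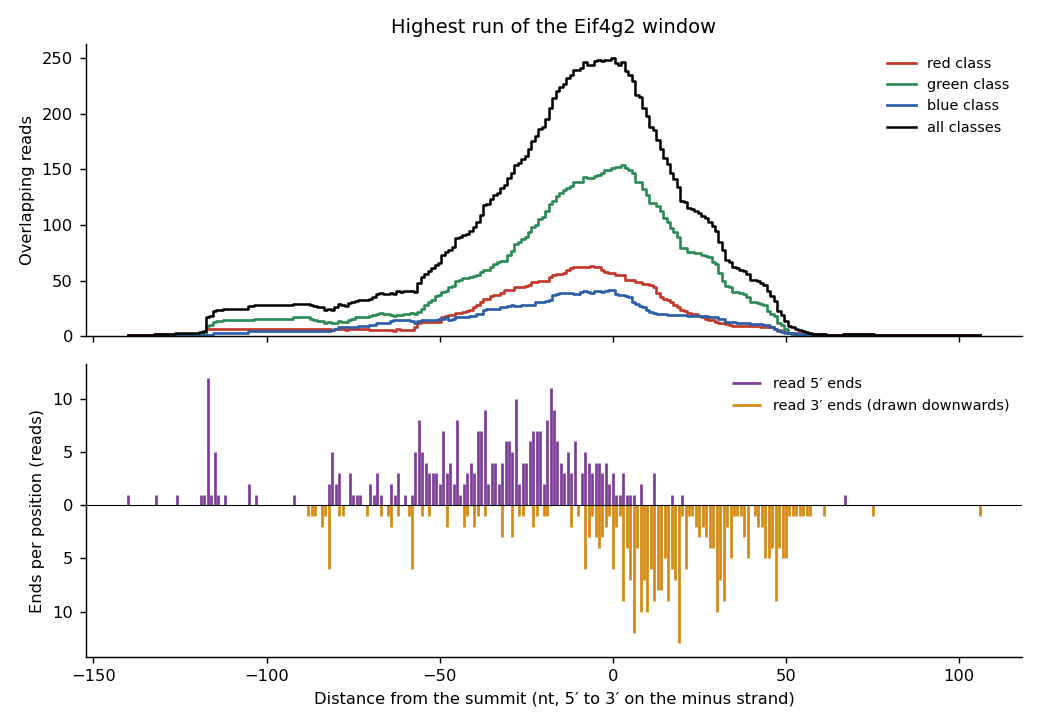
Coverage and read ends along the highest run. The upper panel gives overlapping reads per position for all reads and for each colour class, and the lower panel the number of 5′ ends (upwards) and 3′ ends (downwards) per position, both against the distance from the summit in nt in the 5′ to 3′ direction. The summit of 250 reads has spread ends, and the tallest 5′ bar, 12 reads, stands at the outer edge of the shelf 117 nt upstream.

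All 3 colour classes showed the hill at the same place. The summit of the red class was 63 reads at 118219628, that of the green class 154 reads at 118219619 and that of the blue class 42 reads from 118219622 to 118219623. The stretch at 50% or more of the summit was 54, 51 and 50 nt long in the red, green and blue class. Within each class this was also the highest summit outside the mitochondrial chromosome. Elsewhere the highest summit of red reads was 44, that of green reads 147 and that of blue reads 34, so the lead was narrow in green. The classes are parts of the pooled reads that chose the window, so their order here is a description.

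Relative to depth, the highest run held 15.8 of every 100000 red reads (95% exact Poisson interval 12.5 to 19.7), 21.6 of every 100000 green reads (18.8 to 24.8) and 20.9 of every 100000 blue reads (15.9 to 27.0). The scatter held 6.28 of every 100000 red reads (4.27 to 8.91), 7.14 green (5.55 to 9.05) and 10.6 blue (7.18 to 15.2). That the run stood above the scatter follows from the choice of the highest summit, and nothing is read from it. Of the reads in the run 60.1% were green (95% Wilson interval 54.8 to 65.1), against 52.7% (44.1 to 61.1) in the scatter and 55.1% of all reads. The intervals of the run and the scatter overlap, and the difference between them was not tested. Red reads made 22.7% of the run (18.6 to 27.5), below their 28.6% of all reads, and 24.0% of the scatter (17.5 to 32.1). Blue reads made 17.2% of the run (13.58 to 21.55) and 23.3% of the scatter (16.8 to 31.25), above their 16.3% of all reads.

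Reads of the run had a higher median length than those of the scatter in all 3 classes. Length did not enter the choice of the window directly, but longer reads overlap more and so add to a summit. The medians were 53 nt in the run and 45 nt in the scatter in the red class. They were 47 and 45 nt in the green class, and 52 and 45.5 nt in the blue class. The class medians over all reads were 48, 45 and 47 nt. The differences of 8, 2 and 6.5 nt had the same sign, but the quartiles of run and scatter overlapped in every class, and with 3 classes a two-sided exact permutation test cannot give a p below 0.25, so none is given. Reads of the full 74 nt made 6.12% of the run (21 reads, 95% Wilson interval 4.04 to 9.18) and 1.55% of the scatter (2 reads, 0.426 to 5.48), against 4.18% of all reads. No test of this difference was made, since reads are not independent.

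**Figure D3:**
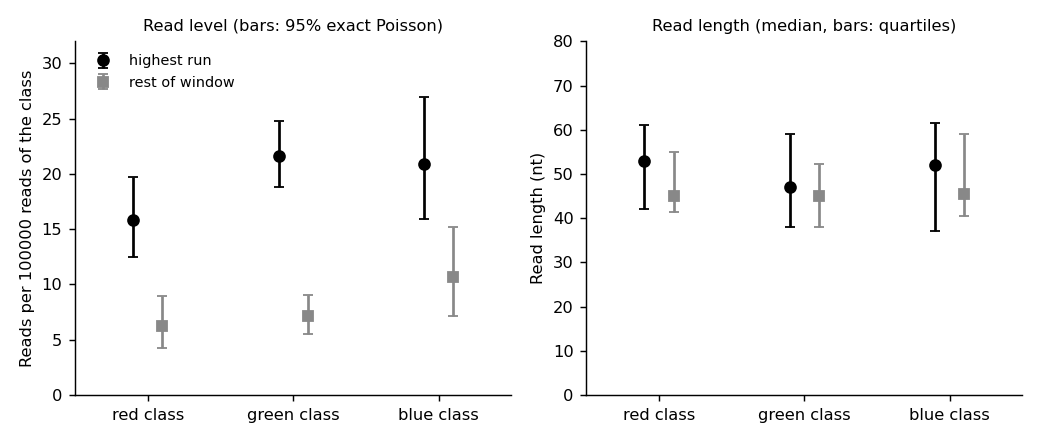
Read level and read length by colour class. The left panel gives reads per 100000 reads of the class with 95% exact Poisson intervals, for the highest run (circles) and the rest of the window (squares), and the right panel the median read length in nt with quartiles. The run, chosen for its height, lies at 15.8 to 21.6 reads per 100000 and the rest of the window at 6.28 to 10.6, and the quartile ranges of the lengths overlap.

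The window was almost wholly on 1 strand. The plus strand carried 3 reads, so 99.4% of the window's reads were on the minus strand (95% Wilson interval 98.2 to 99.8). All 3 plus-strand reads were green and lay between 118228671 and 118228885, above the last minus-strand read. None overlapped the highest run, and 0 against its 343 reads allows a share of up to 0.875%.

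Copies of single molecules can raise a summit, and the file held 0 pairs of lines with the same position and strand. Of the run's reads 50.4% remained when 1 read was kept for each 5′ end and class, and 32.9% when 1 was kept for each 3′ end after that, against 85.9% and 81.4% of all reads. The summit was then 125 and 87 reads, and both times it was still the highest outside the mitochondrial chromosome, with 98 and 67 reads at the next. The green class lost most. It kept 87 of its 206 reads in the first step, while red kept 46 of 78 and blue 40 of 59, and the green share of the run went from 60.1% to 50.3%, then to 39.8%. Where many reads crowd into few positions, separate molecules also share ends by coincidence, and these are lost in the same steps. The part of copies in the height of the run was not tested.

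The run was set beside the other 9 of the 10 highest clusters of the file, and beside all 69 clusters with at least 100 reads. The stretch at 50% or more of the summit was 54 nt, against a median of 60 nt in the other 9, of which 8 were wider. These 9 ranged from 44 to 88 nt apart from 1 of 680 nt. In the 69, chosen by their reads and with a median summit of 48, the median stretch was 133 nt and 58 were wider. Over all 6509 clusters, whose median summit was 13 reads, the median stretch was also 54 nt.

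The surroundings of the 10 highest clusters differed widely. In 17 kb centred on each summit, the Eif4g2 run held 72.1% of the same-strand reads (95% Wilson interval 67.9 to 75.9), with 133 others around it. The cluster on chromosome 9 from 78023101 to 78023251 held all 162 reads around it, and the cluster on chromosome 6 from 47731621 to 47731765 held 96.7%, with 4 others. At the other end, the chromosome 17 cluster from 39983373 to 39983765 held 26.0%, with 1467 others around it, among them the 852 reads of the chromosome 17 cluster from 39984361 to 39985602. The Eif4g2 run had 5 of the other 9 above it in this share, and lay between clusters that stood alone and clusters in densely read surroundings. The median over all 6509 clusters was 15.3%, and 241 of them had a higher share than the Eif4g2 run. A cluster's own reads count towards this share, and its height chose this one. Among the 10 the share did not follow the order of the summits. The second-highest, with 203 reads at its summit, held 26.0%, and the chromosome 9 cluster, with 124, held 100%.

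No single read end held a large share of the Eif4g2 run, yet its reads used few positions for their number. The commonest 5′ end held 3.50% of its reads, against a median of 5.41% in the 69 clusters, where 59 had a higher share. The commonest 3′ end held 3.79%, against a median of 6.09%, and 60 had a higher share. The number of different 5′ ends per read was 0.286, against a median of 0.528, and 65 of the 69 had more. For 3′ ends it was 0.294, against a median of 0.568, and again 65 had more. Of the 69, 62 were also wider than the 247 nt of this run, and 64 had fewer reads than its 343. Different ends per read can fall as reads are added within a limited width. Neither width nor the number of reads was adjusted for. The chromosome 5 cluster of 389 reads had 0.488 different 5′ ends per read over 969 nt. The chromosome 14 cluster of 307 reads had 0.485 over 646 nt. On chromosome 17 the cluster of 516 reads had 0.308 over 393 nt, and that of 852 reads 0.413 over 1242 nt. The chromosome 11 cluster from 33994115 to 33994413, of 136 reads, had 0.4485 over 299 nt. The narrower clusters on chromosomes 10, 3, 6 and 9, of 112 to 190 nt and fewer reads, had 0.2753, 0.28, 0.2845 and 0.358. The chromosome 10 cluster from 75313194 to 75313383 and the chromosome 3 cluster from 145948788 to 145948899 had 13.5% and 14.0% of their reads at 1 shared 3′ end, and 83.7% and 90.7% of their reads were green. The Eif4g2 run had neither property. The share at the commonest end tends to fall as the number of reads grows. Of the 10 highest, 3 had more reads than the Eif4g2 run, and these had 1.76% to 2.91% at their commonest 5′ end. At their commonest 3′ end the 2 on chromosome 17 had 2.52% and 1.41%. The 1 on chromosome 5 had 5.40%, above the Eif4g2 run. No test was made of these differences. In every cluster the absence of identical lines limits the share at 1 end.

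**Figure D4:**
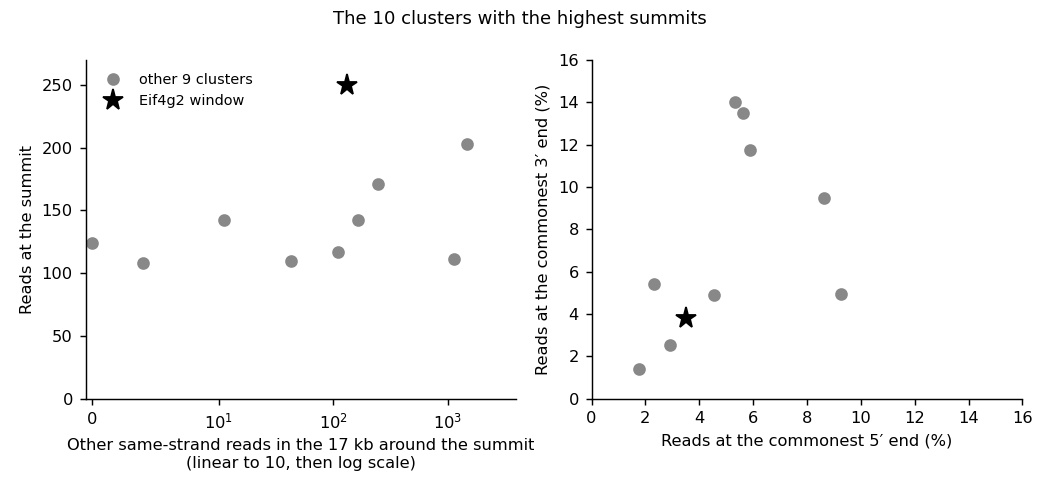
The 10 clusters with the highest summits. The left panel gives reads at the summit against the other same-strand reads in the 17 kb around it (an axis that is linear to 10 and logarithmic above), and the right panel the percentage of a cluster's reads at its commonest 3′ end against that at its commonest 5′ end. The Eif4g2 run (star) has 250 reads at its summit with 133 others around it, and lies at 3.50% and 3.79% on the right, near the lower left corner.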

How the data were processed

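Ptbp2 HITS-CLIP reads of 3 testis libraries were analysed from 1 deposited file, with 1 line per read. Per the labels' protocols, the first 5 of 79 sequenced bases came from the linker. Bowtie and the build mm9 are named in the submitters' processing notes. No source used here gives the Bowtie version, its settings or the handling of duplicates and of reads with several matches. The deposited score was 0 on every line and was not used, and 0 lines were identical in position and strand.

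Positions were counted from 1. Same-strand reads overlapping by at least 1 nt were merged into runs with Python 3.11.15, numpy 2.4.6 and pandas 2.3.3. The figures were drawn with matplotlib 3.10.9. A cluster needed 10 reads at its summit and all 3 colour classes. Where copies were removed, the longest read of each end was kept. Intervals came from Wilson's formula (95%) for shares and from the exact Poisson formula, with scipy 1.17.1, for read levels relative to depth. Run calling was tested on simulated data. The group has no comparison group, so no test between conditions was made. All clusters of the window, and the 10 highest of the file, were to be named. The window, measures and comparisons were chosen with earlier results of these data known. Planned analyses of sequence, annotation, translation factor genes and cell type markers were not run, since no mm9 reference was used here.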

Additional observations from a re-analysis of the deposited data

How the results depend on the processing

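Of 61 alternative values, 39 were scored as kept and 22 as moved. The limit was 1.5 times the reported value for counts and the interval for shares. Ratios of summits had a looser limit, and 20.6 without the green class, against 31.25 as reported, was scored as kept. Without 1 of the classes there were 198 to 383 window reads, 137 to 284 reads and a summit of 103 to 209 in the highest run, and 99.2% to 100% minus-strand reads, the lowest counts and the 100% lying without the green class, which held all 3 plus-strand reads. When each class kept 1 read per 5′ end, there were 289 window reads, 173 in the highest run, a summit of 125, 59.9% of the window's reads in the run, 50.3% green reads and a length difference of 10 nt. With 1 per 3′ end after that these were 224, 113, 87, 50.4%, 39.8% and 14 nt, and the ratio of summits was 14.5. Keeping the longest read raises lengths by construction. The ratio of summits was 20.8 after the first step. A threshold of 5 reads gave 2 clusters in the window. Counting only reads over the summit gave 52.97% in place of 72.7%. The length difference, 3 nt pooled, was 8 nt in the red and 6.5 nt in the blue class alone. Ends within 2 nt of the commonest 3′ end made 9.62%. The highest run was the only cluster of the window under every other setting run. The class shares and the second length value under copy removal were added after seeing the data, and the cause of the shifts was not tested beyond construction. No paired analysis was possible because there is no 2nd group to pair with. The blue class, with 30 reads in the scatter, is the one most limited by depth.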
